A study of Rattus norvegicus with 6 samples.

Results

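The 10 genes described here, Orc1, Orc2, Orc4, Orc5, Orc6, Cdc6, Cdt1, Gmnn, Cdc45 and Cdc7, encode proteins that select, license and fire the origins of DNA replication. They were taken by name as a set, and earlier results of these data were known when it was chosen. Each array probe was tied to its gene through the RefSeq accession printed in the array files. All 10 were found among 13823 protein-coding genes with a usable probe, each by 1 probe that has 1 spot per array. Every member was well above background in all 6 scans, so all 10 belong to the 10001 coding genes tested and none entered through 1 group alone.

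An origin becomes usable when the origin recognition complex (ORC) binds it and, with CDC6 and CDT1, loads the MCM helicase in an inactive form during G1. Geminin, the product of Gmnn, binds CDT1 from S phase on and blocks a new round of loading, and the kinase CDC7 and the helicase cofactor CDC45 then turn loaded helicases into moving forks. Cdc45 and Cdc7 therefore act at firing rather than at licensing in the strict sense. Several of these genes are known targets of E2F transcription factors, which the retinoblastoma proteins hold back in resting cells. The proteins ORC2 to ORC5, by contrast, are generally described as steady through the cell cycle, and the arrays measure RNA.

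RNA was measured on 1-colour (Cy3) arrays. The cells were H9c2, called myocytes in the labels, an established line of dividing myoblasts that was derived from the heart of a rat embryo. The control group had 3 samples kept at normal oxygen. The hypoxia/reoxygenation (H/R) group had 3 samples that spent 1 h in 1% oxygen, 5% carbon dioxide and 94% nitrogen without serum or glucose, then 3 h at normal oxygen. Both groups were grown beforehand in medium with 4500 mg/L glucose and 10% serum. The medium of the control cells during the experiment is not stated, so the effects of oxygen and of serum or glucose cannot be told apart. Both groups are the same line, and no animal or genotype separates the samples. The protocol text also speaks of mouse cortex as the RNA source, which goes against the rat line in the other labels.

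The design text calls the 3 samples of a group independent experiments. Replicates 2 and 3, however, lie at the same slide position in both groups. Their median absolute difference was 0.0228 log2 units in the control pair and 0.0231 in the H/R pair, while all other pairs of the same group differed by 0.123 to 0.158. The pair was therefore taken as 2 scans of 1 array and its mean was used, so that n = 2 arrays in either group. The p-values describe the spread among these 4 arrays and no more, and that spread may be technical. No slide position holds arrays of both groups, so position cannot be told apart from treatment. Between 58.4% and 71.1% of 42136 non-control spots were well above background in a scan, and the number of arrays limits the precision. Levels below are log2 signals relative to the 75th percentile of probes on the same scan, and differences are H/R minus control on that log2 scale. Tests are limma's with Benjamini-Hochberg adjustment over 15899 probes and a threshold of 0.05.

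Markers of muscle were present. Of 8 cardiac markers 7 were well above background in every scan and Ryr2 was not in any. Of 8 skeletal myoblast markers 7 were well above background and Myf6 was not. All 6 fibroblast and mesenchymal markers on the array were well above background, but so were only 3 of 6 leukocyte, 1 of 3 endothelial and 2 of 5 brain cortex markers. The leukocyte genes Csf1r, Aif1 and Cd68, the endothelial gene Tek and the brain cortex genes Gfap and Syn1 were well above background in every scan. Ptprc, Itgam, Adgre1, Pecam1, Cdh5, Rbfox3, Aqp4 and Map2 were not well above background in any scan. The summed level of the skeletal list was 3.51 and 3.76 on the control arrays and 2.80 and 3.26 on the H/R arrays, and that of the cardiac list was 2.60 and 2.51 against 3.32 and 3.40. For the fibroblast list it was 5.32 and 5.61 against 5.74 and 5.84. The leukocyte sum was -1.15 and -1.79 against -1.61 and -1.43, the brain cortex sum was -2.67 and -2.93 against -2.71 and -2.94, and the endothelial sum was -4.30 and -4.24 against -3.38 and -3.12. In the skeletal list 1 of 7 tested genes fell (Myod1) and 2 rose (Ckm and Tnnt1), and the median difference was 0.38, opposite in sign to the change of the sum. In the cardiac list 2 of 7 rose (Tnnt2 and Myh6) and 0 fell. Of the other lists, 2 of 6 fibroblast genes (Pdgfrb and Dcn) and the endothelial gene Tek rose, and 0 of the tested leukocyte and brain genes passed. Over all coding genes tested, 16.2% were called higher and 9.62% lower, and these short lists were not tested against those shares. Ckm, which encodes muscle creatine kinase, rose by 1.22 ± 0.28 (limma adjusted p = 0.0398), and Tnnt1, which encodes slow skeletal troponin T, rose by 0.51 ± 0.12 (adjusted p = 0.0371). Myod1, which encodes a myogenic transcription factor, fell by 1.48 ± 0.18 (moderated SE, n = 2 arrays per group, limma adjusted p = 0.00814). Tnnt2, which encodes cardiac troponin T, rose by 1.13 ± 0.09 (adjusted p = 0.00379). Some markers differed between the 2 H/R arrays, with Des at -0.47 and 1.46, Pdgfra at -6.05 and -4.45 and Ckm at -2.64 and -1.84. Others did not, such as Tnnt2 at 2.76 and Vim at 4.35 on both. The part of these marker shifts in the results below was not tested.

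The comparison asks how H/R changes the levels of the licensing genes. Their change came in a split form. Orc1, Orc6, Cdc6, Cdt1, Gmnn, Cdc45 and Cdc7 fell to between 36.9% and 51.5% of their control signal, while Orc2, Orc4 and Orc5 lay at 92.8%, 108% and 102% and did not pass. Thus 7 of 10 members fell and 0 rose, with a median difference of -1.02 over the 10. Over all 15899 probes tested, 23.7% were called in either direction, 8.87% lower in H/R and 14.8% higher, and the median difference was 0.07. Among coding genes 9.62% were called lower. The 3769 calls over all probes became 2040 without control replicate 1, 1091 without H/R replicate 1 and 1008 without H/R replicates 2 and 3. In bulk RNA, fewer cells at the stage that expresses a gene and less of its RNA per cell cannot be told apart.

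Without the filter on dim probes, when 24578 probes enter the fit and 594 of them are called, 3 of the 7 member calls were kept (Orc1, Cdc6 and Cdc45) and those of Orc6, Cdt1, Gmnn and Cdc7 ended at adjusted p of 0.0502 to 0.0529. The number of members called lower stayed at 7 in each fit that left out a scan or an array. Scaling each array to its median in place of its 75th percentile turned the split of all called probes from 62.6% higher to 41.0% higher (1566 higher and 2253 lower, or 14.2% of probes lower), moved the median of all probes to -0.06 and left the 7 falls called.

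**Figure D1:**
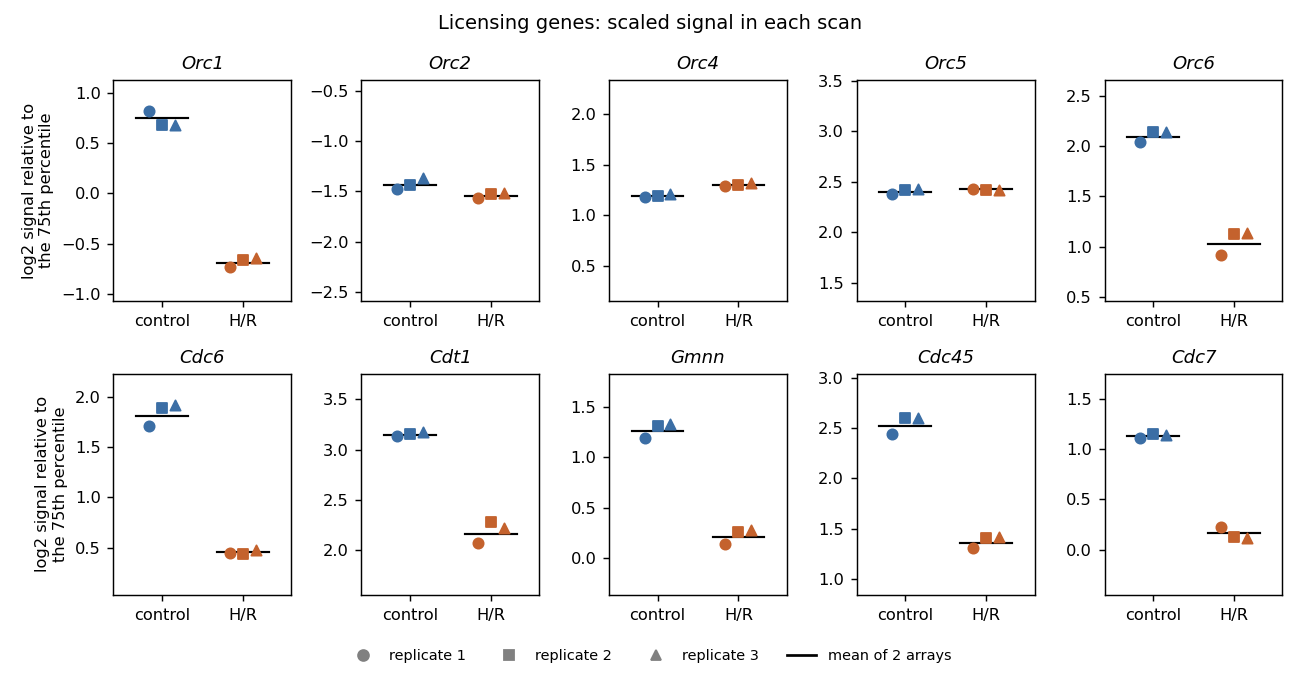
Each panel plots 1 licensing gene, with the log2 signal relative to the 75th percentile of the scan on the vertical axis, control scans in blue and H/R scans in orange; marker shapes give the replicate and bars the mean of 2 arrays. The vertical axes start at different levels but cover the same number of log2 units, so the drop of about 1 unit or more in 7 genes can be set beside the near-level panels of Orc2, Orc4 and Orc5.

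Within ORC, the complex that marks the origin, Orc1 had the lowest difference of the 10 members, although Cdc6 fell further when control replicate 1 was left out (-1.45 against -1.37) and in the second scan (-1.44 against -1.32). Orc1 encodes the subunit that completes the DNA-binding ATPase and whose protein is known to vary through the cell cycle. Its level in control replicates 1, 2 and 3 was 0.81, 0.68 and 0.68, and its level in the same H/R replicates was -0.73, -0.66 and -0.64. The lowest control scan thus lay above the highest H/R scan by more than either group's spread. All 3 H/R scans lay below all 3 control scans for each gene that fell, as for 26.7% of all tested probes. Orc1 fell by 1.44 ± 0.10 (95% interval of the difference -1.70 to -1.17, adjusted p = 0.00298), and 0.648% of tested probes had a larger fall.

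Orc6, which encodes the smallest ORC subunit, a protein that also takes part in MCM loading and in cell division, was at 2.04, 2.14 and 2.14 in control replicates and at 0.91, 1.12 and 1.14 in H/R replicates. H/R replicate 1 was the lowest scan, and the groups did not overlap. Orc6 fell by 1.07 ± 0.12 (interval -1.38 to -0.77, adjusted p = 0.00689), that is to 47.6% of control.

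Orc2, Orc4 and Orc5, core subunits of the same complex, stayed close to their control levels. Orc2 was at -1.47, -1.44 and -1.37 in control scans and at -1.57, -1.53 and -1.51 in H/R scans. Its difference was -0.11 ± 0.09 (interval -0.35 to 0.13, adjusted p = 0.433). Orc4, which encodes an ATPase subunit, was at 1.18, 1.19 and 1.21 against 1.29, 1.30 and 1.32. The scans of Orc2 and of Orc4 did not overlap between the groups, yet the gaps were small and 64.1% of all tested probes had groups that did not overlap. Orc4 differed by 0.11 ± 0.09 (interval -0.12 to 0.35, adjusted p = 0.390), and Orc5 by 0.03 ± 0.09 (interval -0.21 to 0.26, adjusted p = 0.848). Orc5 was at 2.38, 2.42 and 2.42 in control and at 2.43, 2.42 and 2.42 in H/R, so its groups overlapped. The sign of the Orc4 and Orc5 differences turned with median scaling (-0.013 and -0.10), and that of Orc5 also with the percentile taken over spots (-0.021). These results do not show that the 3 genes were unchanged. The lowest bound of their intervals is -0.35, whereas the highest bound among the 7 genes that fell is -0.71. The difference between the changes of single members was not tested.

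**Figure D2:**
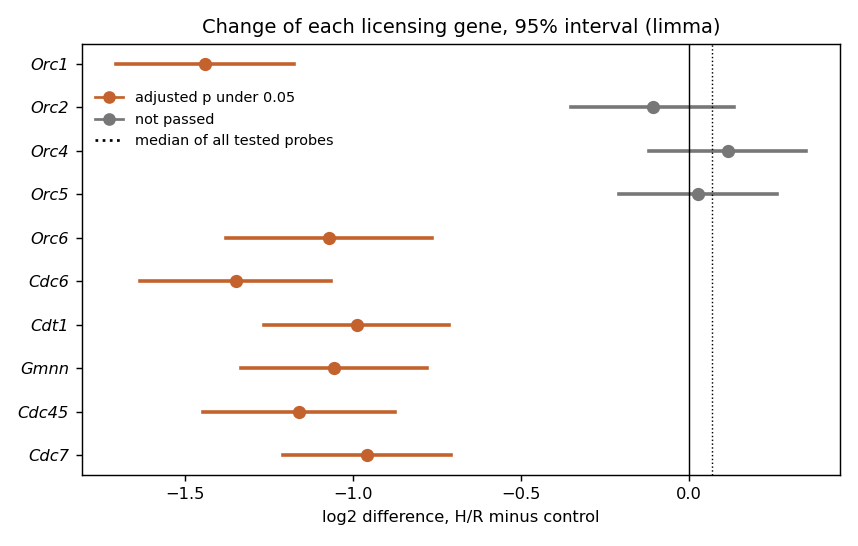
Points give the log2 difference, H/R minus control, of each licensing gene on the horizontal axis, and lines give limma's 95% interval (n = 2 arrays per group); orange marks adjusted p under 0.05 and the dotted line the median of all tested probes, 0.07. The intervals of 7 genes lie between -1.70 and -0.71, and those of Orc2, Orc4 and Orc5 span 0.

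Both loading factors fell. Cdc6 encodes the ATPase that joins ORC at the origin and recruits CDT1 with the helicase. Its level was 1.70, 1.89 and 1.91 in control replicates and 0.45, 0.44 and 0.48 in H/R replicates. The H/R scans lay close together and all below the control scans. Cdc6 fell by 1.35 ± 0.11 (interval -1.63 to -1.06, adjusted p = 0.00377), to 39.3% of control. Cdt1, which encodes the partner that carries the MCM ring to ORC, was at 3.13, 3.15 and 3.18 in control scans and at 2.07, 2.28 and 2.22 in H/R scans. Its control scans were tighter than its H/R scans, and no scans overlapped. Cdt1 fell by 0.99 ± 0.11 (interval -1.26 to -0.71, adjusted p = 0.00657).

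The gene of the CDT1 inhibitor fell by a like amount. Gmnn was at 1.19, 1.31 and 1.33 in control replicates and at 0.14, 0.26 and 0.28 in H/R replicates. Replicate 1 was the lowest scan of each group, and the groups did not overlap. Gmnn fell by 1.06 ± 0.11 (interval -1.33 to -0.78, adjusted p = 0.00591), to 48.1% of control beside 50.4% for Cdt1. Activator and inhibitor of loading thus moved in the same direction at the RNA level, and the arrays hold no protein values.

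Of the genes that act at firing, Cdc45, whose product joins MCM and GINS in the active helicase, was at 2.44, 2.60 and 2.60 in control scans and at 1.31, 1.41 and 1.42 in H/R scans. It fell by 1.16 ± 0.11 (interval -1.44 to -0.88, adjusted p = 0.00514). Cdc7, which encodes the catalytic subunit of the kinase that phosphorylates loaded MCM, was at 1.11, 1.15 and 1.14 against 0.22, 0.13 and 0.11. Cdc7 fell by 0.96 ± 0.10 (interval -1.21 to -0.71, adjusted p = 0.00576), and 2.34% of tested probes fell further. Dbf4, which encodes the regulatory subunit of that kinase, was not analysed here.

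The falls were visible before any scaling between arrays. The processed signal of Orc1 was 4315, 3364 and 3348 units in control scans and 1066, 1623 and 1691 units in H/R scans, and that of Cdc6 was 8001, 7751 and 7862 against 2417, 3480 and 3668 units. H/R replicate 1 was the dimmest scan by its 75th percentile. The unscaled groups of all 7 genes that fell stayed apart. This held for 14.6% of all tested probes in the downward direction. For Orc5 the unscaled signals were 12753, 11221 and 11193 units in control and 9553, 13746 and 14091 units in H/R, and the unscaled groups of Orc2, Orc4 and Orc5 all overlapped.

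Scan also divides the files, since replicates 1 and 2 of both groups were read in 1 scan and replicate 3 of both in another. In the first scan alone the 7 falls ranged from -1.44 to -0.96, and in the second, with 1 file per group and no test, they ranged from -1.44 to -0.96 too. For a single member the values of the 2 scans differed by at most 0.12. Replicate 3 was taken above as a second scan of the replicate 2 array, so the second scan adds no new array. Likeness of the 2 scans was therefore largely given beforehand. With all 6 scans as separate samples and the scan as a block, 7 members were called lower and 0 higher. Of all 15899 probes that fit called 3055 lower and 4368 higher, against 1411 and 2358 in the main fit. It counts 1 array as 2 samples.

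The falls also exceeded the differences between arrays of the same group. Between the 2 arrays of a group, the members differed by 0.02 to 0.20 in control and by 0.01 to 0.22 in H/R, against differences of -1.44 to -0.96 in the genes that fell. The widest gap within a group was that of Orc6 in H/R.

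**Figure D3:**
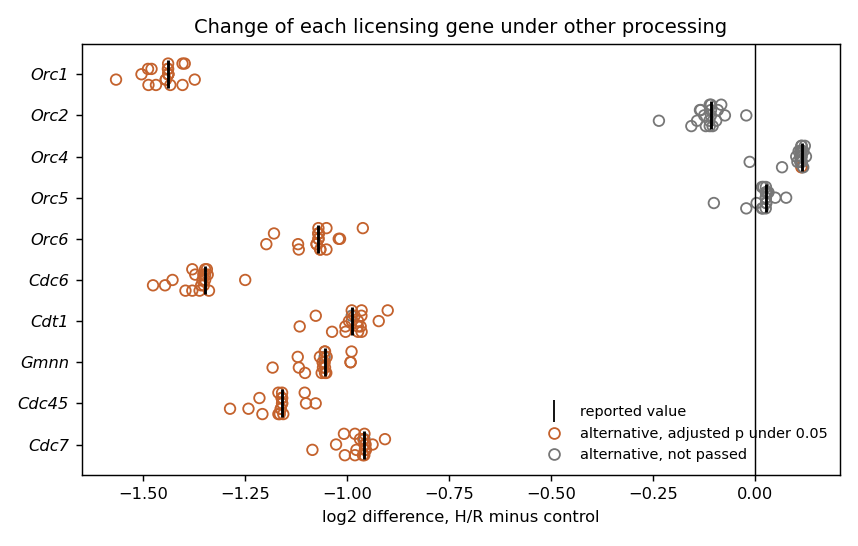
Open circles give the log2 difference, H/R minus control, of each licensing gene under each of 19 alternatives, orange where adjusted p was under 0.05, and black ticks give the reported value; circles are spread vertically for legibility. The circles of Orc1 run from -1.57 to -1.37 and those of Cdc7 from -1.09 to -0.91, while those of Orc2, Orc4 and Orc5 lie between -0.24 and 0.12.

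Promoter sequence was set beside these changes. RefSeq windows of build GRCr8, 300 bases long and reaching 50 bases past the annotated start, were at hand for 7 of the 10 members, all but Orc1, Orc4 and Cdc6. They were searched on both strands for an E2F-type core (TTCCCGC as its first form, TTCGCGC as the second, TTGCCGC as the third or TTGGCGC as the last), for the CCAAT box bound by NF-Y and for the cell cycle element TTTGAA. An E2F-type core was found in Cdt1, Gmnn, Cdc7 and Orc5, which is 4 of 7 windows, against 9.52% of all 33469 windows and 14.6% of the 18969 windows with at least 50% GC. Among these 4, Cdt1, Gmnn and Cdc7 fell and Orc5 did not pass. A core was thus found in 3 of 5 windows of genes that fell and in 1 of 2 windows of genes that did not pass. So few windows cannot show whether these words separate the members by their change. Cdt1 is shown because it holds 3 matches, Cdc7 because it holds 1 just after the start, Orc5 because it has a match without a called change, and Orc2 because it has neither. Capitals mark the E2F-type matches on either strand.
Cdt1: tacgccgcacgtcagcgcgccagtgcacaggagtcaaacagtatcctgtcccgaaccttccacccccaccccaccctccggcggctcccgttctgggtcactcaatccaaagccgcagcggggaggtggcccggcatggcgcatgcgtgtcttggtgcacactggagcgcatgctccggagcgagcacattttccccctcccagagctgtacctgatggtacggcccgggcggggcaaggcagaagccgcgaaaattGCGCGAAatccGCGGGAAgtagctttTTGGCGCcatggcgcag
Cdc7: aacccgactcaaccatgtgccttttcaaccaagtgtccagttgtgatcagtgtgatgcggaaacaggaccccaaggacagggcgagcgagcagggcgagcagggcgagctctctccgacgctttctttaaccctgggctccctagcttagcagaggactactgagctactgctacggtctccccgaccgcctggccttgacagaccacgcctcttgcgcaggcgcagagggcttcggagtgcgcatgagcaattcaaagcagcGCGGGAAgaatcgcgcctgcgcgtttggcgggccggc
Orc5: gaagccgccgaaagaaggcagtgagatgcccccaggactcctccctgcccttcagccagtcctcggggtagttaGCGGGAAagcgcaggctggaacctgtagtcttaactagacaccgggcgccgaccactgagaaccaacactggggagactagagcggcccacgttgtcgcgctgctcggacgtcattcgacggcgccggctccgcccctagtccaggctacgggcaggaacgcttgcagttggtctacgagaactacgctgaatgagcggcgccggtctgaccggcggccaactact
Orc2: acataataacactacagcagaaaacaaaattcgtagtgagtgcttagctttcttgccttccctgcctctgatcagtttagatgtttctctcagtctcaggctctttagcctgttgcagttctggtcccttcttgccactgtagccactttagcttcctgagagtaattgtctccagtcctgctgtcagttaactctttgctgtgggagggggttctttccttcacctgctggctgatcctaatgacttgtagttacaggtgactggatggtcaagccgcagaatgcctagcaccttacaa
The windows are chr19:67528999-67529298 (plus strand) for Cdt1, chr14:2969607-2969906 (minus strand) for Cdc7, chr4:13440083-13440382 (plus strand) for Orc5 and chr9:67526600-67526899 (minus strand) for Orc2. In Cdt1 the matches cover bases 8 to 14, 19 to 25 and 34 to 40 after the start, and in Cdc7 the match covers bases 14 to 20. The Gmnn match lies at bases 40 to 46. In Orc5 it lies upstream, at bases -176 to -170. CCAAT was found in 3 of 7 windows, those of Orc6, Gmnn and Cdc45, with 4 copies in Cdc45 between bases -146 and -74, against 37.5% of all windows and 34.8% of those with at least 50% GC. TTTGAA was found in Cdc7 only among the 7, at bases 3 to 8 on the other strand, against 18.3% of all windows and 9.79% of those with at least 50% GC. A match of letters is not a binding site. The search misses other forms of these elements, and these windows miss any element outside them.

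The licensing genes were set beside 7 lists of other replication and cell cycle genes. Some listed genes were not analysed or were too dim to test, so the counts are of the genes tested. Of 56 such genes tested, 27 fell and 2 rose, against 9.62% of coding genes lower and 16.2% higher. Without the dim-probe filter 3 of these 29 calls were left. The count was 19 when control replicate 1 was left out and 17 when control replicates 2 and 3 were. It was 9 when H/R replicate 1 was left out and 10 when H/R replicates 2 and 3 were. In these fits 1 group has a single array, which is assumed to vary like those of the other.

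Among the other partners of ORC, the third core subunit gene Orc3 differed by 0.24 ± 0.09 (adjusted p = 0.130), so it was not called, as with Orc2, Orc4 and Orc5. Lrwd1, whose product tethers ORC to chromatin, differed by -0.10 and Kat7, which encodes a histone acetyltransferase that aids licensing, by 0.00, and neither passed. In all, 1 of 5 fell and 1 rose, with a median of 0.00. The one that fell was Mcmbp, which encodes an MCM-binding protein, by 0.61 ± 0.09 (adjusted p = 0.0134). Phf8, a histone demethylase gene, rose by 0.41 ± 0.10 (adjusted p = 0.0479), but that call was kept in 1 of 5 other scalings.

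All 5 tested genes of the MCM list, whose core members form the helicase that licensing loads, fell, with a median of -0.67. Mcm2, Mcm6 and Mcm7, subunits of the ring itself, fell by 0.78 ± 0.11, 0.67 ± 0.13 and 0.49 ± 0.10 (adjusted p = 0.0113, 0.0244 and 0.0299). Mcm10, a firing factor outside the ring, fell by 0.64 ± 0.15, and Mcm8, which encodes a relative known for DNA repair, fell by 0.84 ± 0.12 (adjusted p = 0.0395 and 0.0133). Mcm3, Mcm4, Mcm5 and Mcm9 were not analysed here. Of the GINS subunits and other firing factors, 7 of 9 fell and 0 rose, with a median of -0.66. Timeless, which encodes a fork protection factor, fell by 1.33 ± 0.13 (adjusted p = 0.00555). Gins2 fell by 0.99 ± 0.10, and Donson, whose product helps deliver GINS to the helicase, fell by 0.96 ± 0.10 (adjusted p = 0.00600 and 0.00555). Gins1, Gins3, Gins4 and Wdhd1 fell too, with differences of -0.67 to -0.59, and Recql4 and Mtbp did not pass (-0.28 and -0.36).

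Most genes of the machinery that degrades CDT1 and geminin did not pass. In that list 2 of 10 fell and 0 rose, with a median of -0.11. Those that fell were Pcna, which encodes the sliding clamp on which CDT1 is marked for destruction, which fell by 0.61 ± 0.10, and Fbxo5, which encodes the inhibitor EMI1 of the anaphase-promoting complex and fell by 0.70 ± 0.11 (adjusted p = 0.0189 and 0.0142). The ubiquitin ligase genes Skp2, Cul4a, Cul4b, Cul1, Skp1 and Fzr1 differed by between -0.28 and 0.32 and did not pass. Dtl, Ddb1, Kmt5a, Usp37 and Mcidas were not analysed here.

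Of the cyclin and kinase genes that time S phase, 6 of 11 fell and 0 rose, with a median of -0.46. Ccne2, which encodes cyclin E2, fell by 1.44 ± 0.14, and Ccnd1, which encodes the growth factor-induced cyclin D1, fell by 1.36 ± 0.14 (adjusted p = 0.00519 and 0.00606). Cdk2, the kinase gene of cyclins E and A, fell by 1.03 ± 0.16, and the phosphatase gene Cdc25a fell by 0.49 ± 0.09 (adjusted p = 0.0140 and 0.0235). The inhibitor genes Cdkn1a and Cdkn1b differed by 0.38 ± 0.17 and 0.12 ± 0.10 and did not pass. In the E2F and retinoblastoma list 5 of 8 fell and 1 rose, with a median of -0.60. The activator gene E2f1 fell by 0.92 ± 0.10, and the repressor gene E2f7 fell by 0.87 ± 0.09 (adjusted p = 0.00652 and 0.00649). Mybl2, which encodes B-MYB, fell by 0.98 ± 0.10 (adjusted p = 0.00600). Lin54, which encodes a DNA-binding subunit of the DREAM complex, fell by 0.69 ± 0.09, and the E2F partner gene Tfdp1 fell by 0.51 ± 0.09 (adjusted p = 0.0107 and 0.0226). E2f3 was too dim to test. Rbl2, which encodes the pocket protein p130 of resting cells, rose by 0.70 ± 0.12 (1.63-fold, adjusted p = 0.0182).

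Of the mitosis genes 1 of 8 fell and 0 rose, with a median of -0.13, a share near the 9.62% of coding genes called lower. The one that fell was Aurkb, which encodes the kinase Aurora B, by 0.64 ± 0.09 (adjusted p = 0.0129). The other 7 did not pass, with differences of -0.42 for the checkpoint kinase gene Bub1, -0.25 for Ttk, -0.16 for Plk1, -0.11 for the cyclin gene Ccnb1, 0.19 for Kif20a, 0.21 for Ccnb2 and 0.43 for the kinase gene Aurka. Nusap1 and Tpx2 were on the array but too dim to test, and Bub1b, Kif11, Cenpe, Cenpf, Top2a, Mki67 and Birc5 were not analysed here. The difference between the lists was not tested.

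**Figure D4:**
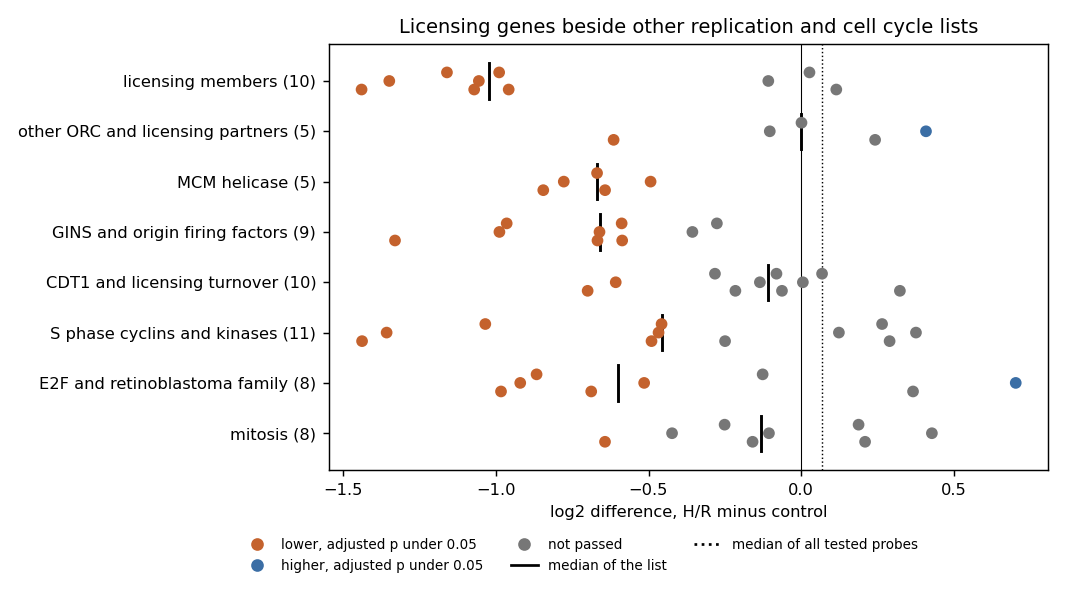
Each point is 1 tested gene, placed on the horizontal axis by its log2 difference, H/R minus control, and on the vertical axis by its list, with the number tested in parentheses; orange and blue mark genes lower and higher at adjusted p under 0.05, grey those that did not pass, and black bars the median of each list. The licensing genes have a median of -1.02, the MCM and GINS lists of -0.67 and -0.66, and the mitosis list of -0.13.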

How the data were processed

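The 6 samples were hybridised to 1-colour arrays. Spot intensity was read by the authors with Agilent Feature Extraction 11.0.1.1, per the submitters' processing notes. Per the file headers this intensity has the background of its own array removed, no scaling between arrays was made, and the design is based on build rn4. Other columns of the deposited files are flags of 0 or 1 for outlier spots and for spots well above background. A deposited log2 table lists 16841 probes. How the authors normalized it is not stated in these sources; their columns correlated with the scanner values at r of 0.9998 to 0.9999 across probes and had medians of 9.18 to 9.19.

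Control and outlier spots were left out, log2 intensities were averaged per probe, and each scan's 75th percentile over 24578 usable probes was subtracted. Probes well above background in all 3 scans of a group were tested (15899). Replicates 2 and 3 of a group were averaged, and limma 3.58.1 in R 4.3.3 compared 2 arrays with 2 (lmFit, eBayes, two-sided, 2 residual and 2.86 prior degrees of freedom). The script was tested on simulated data. Accessions were matched without versions to the GRCr8 RefSeq table, and 14274 of 15323 coding probes received a symbol. The files' median spot signal was used for normexp, in place of the mean signal planned. Text and figures used Python 3.11.15, pandas 2.3.3 and matplotlib 3.10.9. Besides the 10 members, up to 4 genes per pathway list with the smallest adjusted p, the genes of any count of 5 or fewer, and members of a list that did not pass, picked after their values were seen, are named. The members, lists and tests were chosen with earlier results of these data known.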

Additional observations from a re-analysis of the deposited data

How the results depend on the processing

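Of 190 values of single licensing genes under 19 alternatives, 182 kept their direction and their side of the threshold, 4 lost their call, 1 gained one and 3 changed sign. The 4 lost calls were Orc6, Cdt1, Gmnn and Cdc7 without the filter on dim probes, where 3 members, 594 of 24578 probes and 3 pathway genes were called. In that fit more probes enter the adjustment and the moderated errors also rise at unchanged differences (Orc6 from 0.118 to 0.137, Cdc7 from 0.0959 to 0.113); which of these ended the calls was not tested. The sign changes were Orc4 (-0.013) and Orc5 (-0.10) with median scaling and Orc5 (-0.021) with the percentile over spots, none of them called. Orc4 gained a call (0.11, adjusted p = 0.0479) when the 6 scans were fitted as separate samples, which called 8309 probes against 3769 and 42 pathway genes against 29; with the scan as a block 7423 probes and 39 pathway genes were called. Both of these count 1 array as 2 samples. The block on scan and the percentile over spots were chosen after seeing the data. Median scaling moved the members' median from -1.02 to -1.15. Leaving out 1 scan or array gave 1008 to 3778 probes, 7 members in each case, a members' median of -1.10 to -0.98 and 9 to 29 pathway genes. The deposited log2 values gave 7 called members, with Orc1 at -1.49 and Cdc7 at -0.97, beside 1706 of 15745 probes called lower. After normexp 7 members were called, beside 2021 of 15899 probes called lower. In the main fit 1411 of 15899 probes were called lower. With the replicate block 3886 probes, 7 members and 27 pathway genes were called and the members' median was -1.02. With 2 arrays per group the replicate numbers give only 2 pairs. Across probes, the gap between the 2 control arrays correlated at 0.15 with the gap between the 2 H/R arrays. That value cannot show whether the numbers mark a shared batch or day. Each member rests on 1 spot per array, and 2 arrays per group limit the precision of every value.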
